A study of Mus musculus with 4 samples.

Results

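The genes described here encode inhibitory and paired receptors of T cells and some of their ligands: Lag3, Havcr2, Tigit, Cd96, Cd226, Cd274, Lilrb4, Btla, Cd200 and Cd160. They were taken by symbol from the deposited count table, in which all 10 had a row among 24061 gene rows. The sequenced cells were regulatory T cells with an effector phenotype from Peyer's patches, the lymphoid follicles of the small intestine, of mice. They were sorted as CD4-positive and FoxP3-positive cells of that phenotype. The mice were 13 weeks old, on a C57BL/6 background of backcross generation 5, and all carried FoxP3-YFP-cre, a Cre recombinase with a fluorescent reporter at the locus of the regulatory T cell factor FoxP3. According to the labels, 2 libraries (flox 1 and flox 2) came from Mafflox/flox mice, in which Cre can delete the gene of the transcription factor c-Maf in these cells, and 2 (wt 1 and wt 2) from Maf+/+ mice. About 40000 cells went into each library, and no label states that libraries of a group are from separate animals. P-values therefore measure only the spread between these libraries, which may be technical.

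Inhibitory receptors restrain lymphocytes, in part through phosphatases that they recruit to the cell membrane when a ligand is bound. Paired receptors are sets that share a ligand and differ in what they signal. TIGIT and CD96 share the ligand CD155 with the activating receptor CD226, and BTLA and CD160 share the ligand HVEM. On regulatory T cells, several of these receptors are known as features of the activated, suppressive state.

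Counts of Maf, the targeted gene, contradicted the genotypes given for wt 2 and flox 1. Maf had 15 counts in the library labelled flox 2 and 40 in the library labelled wt 2, against 2975 in the library labelled flox 1 and 3071 in the library labelled wt 1. The Maf level thus followed the number in the sample titles, not the genotype in them. A separate replicate field of the labels numbers both wt libraries 1 and both flox libraries 2, so that the number itself is not given in the same way throughout. The deposited normalised table bears on this too: classic edgeR pseudo-counts (counts adjusted to a common library size) recomputed from the raw counts equalled the deposited values to a relative tolerance of 1e-06 in 100% of 42472 cases when libraries were grouped by title number, and in 3.25% when grouped by genotype label. No library was moved to another group. The 10 genes were compared by title number, libraries numbered 2 (low Maf counts) over libraries numbered 1 (high Maf counts), and by genotype label, and a difference by number is one between numbers, not between stated genotypes.

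Gene totals were 19368745 to 24687897 counts per library. Cell identity genes were present throughout: Ptprc, the pan-leukocyte phosphatase CD45, was at 2591 to 3099 CPM (gene counts relative to library size scaled by TMM), Cd3e, a subunit of the T cell receptor complex, at 1239 to 1370, and Foxp3 at 91.0 to 104. The library labelled flox 2 stood apart in 9 heat shock genes, which summed to 11117 CPM there against 3692 in wt 2, 4468 in flox 1 and 3719 in wt 1. Their most abundant members, Hspa8 and Dnaja1, had 4359 and 1207 CPM in flox 2, against at most 2375 and 694 elsewhere. Fits by number were therefore also run without flox 2.

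By number, 3 of the 10 genes passed edgeR's quasi-likelihood test (Benjamini-Hochberg adjusted p under 0.05 over the 13022 genes tested), where 1.81% of all tested genes did. Lag3 and Tigit fell and Cd160 rose in the libraries numbered 2. For 1.41% of all tested genes the call was lower and for 0.399% it was higher. Libraries of the 2 numbers did not overlap for 7 of the 10 genes: Lag3, Havcr2, Tigit and Btla were lower and Cd96, Cd200 and Cd160 higher in both libraries numbered 2. Such separation was common, at 45.2% of all tested genes, of which 22.5% lower and 22.7% higher in the libraries numbered 2. The median log2 fold change of the 10 genes was 0.10, beside 0.0089 over all tested genes, so they did not move one way. All 10 passed the filter on low counts. With 1 library left out, which of the 10 edgeR called depended on the library, and no call remained without wt 1. Without flox 2 the log2 fold changes were -1.20 for Lag3, -0.78 for Tigit and 0.78 for Cd160. Without wt 1 they were -0.98, -0.63 and 0.69. Each of these fits has 1 library on one side, which is assumed to vary like the pair on the other.

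**Figure D1:**
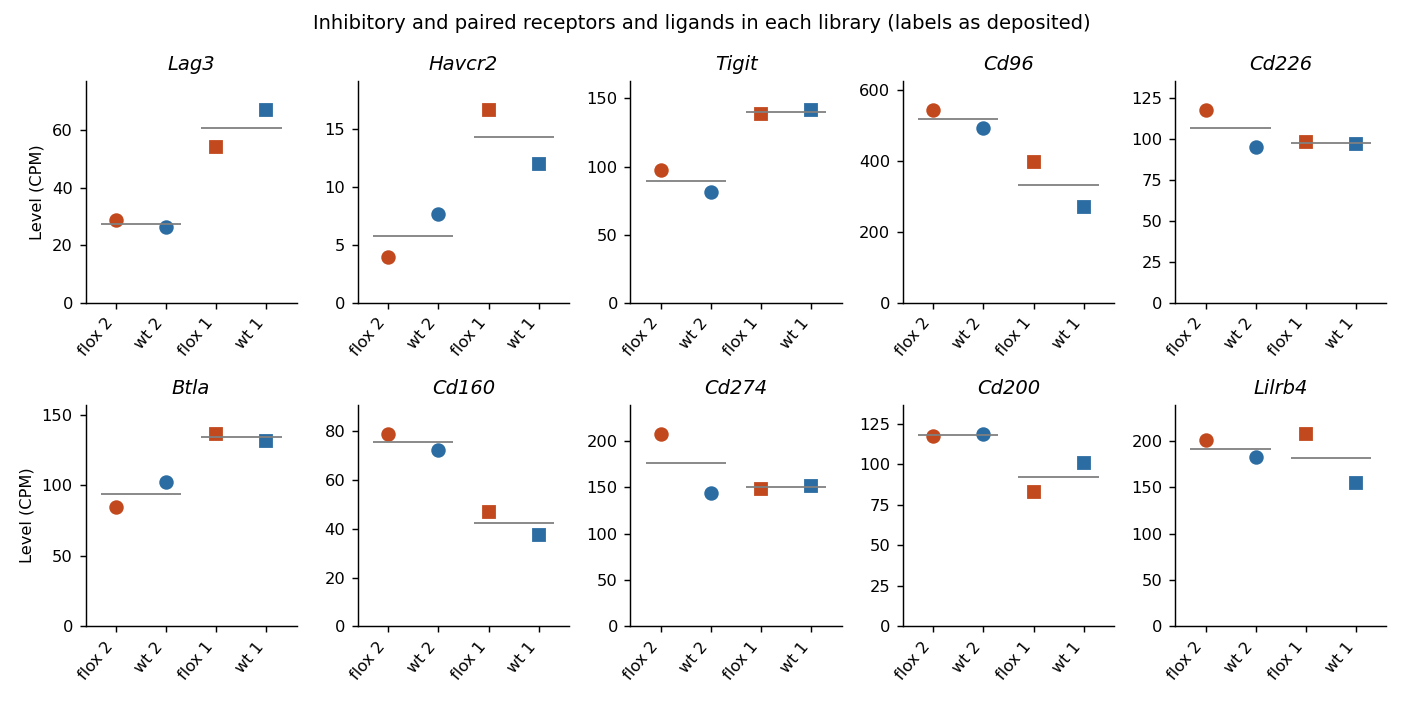
Level in CPM of each of the 10 genes (vertical axis, from 0) in the 4 libraries, with libraries numbered 2 (circles) left of those numbered 1 (squares), labelled flox in orange and labelled wt in blue, and grey lines at the mean of each number. Lag3, at 28.8 and 26.3 CPM against 54.3 and 67.0, and Cd160, at 78.9 and 72.3 against 46.9 and 37.4, separate by number, whereas Lilrb4 does not.

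Ordered by level per transcript length (RPKM, from the longest coding transcript in GENCODE M21), Cd96 was highest with a mean of 195 RPKM over the 4 libraries (124 to 249). Lilrb4 followed with 135 (112 to 150) and Tigit with 125 (88.7 to 154). Cd96 was above Lilrb4 in every library. Tigit was below both in flox 2 and wt 2 and above both in wt 1, so its place depended on the library. The place of Lilrb4 also depended on the length used. Its annotated exons together cover 5227 bases, against 1381 in the transcript used, while for Cd96 and Tigit these lengths were equal. Cd274 had 45.0 RPKM (39.8 to 57.4), Cd200 44.8 (35.4 to 50.7) and Btla 35.0 (26.0 to 42.1), again with overlapping ranges, all below the lowest value of Tigit. Cd160, Cd226 and Lag3 were at 22.7, 22.7 and 22.0 RPKM and could not be put in order. Havcr2 was lowest at 3.69 RPKM (1.44 to 6.13), below every other gene in every library.

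Lag3 encodes a CD4-like receptor that binds class II histocompatibility molecules and restrains T cells. Its counts were 596 in flox 2 and 531 in wt 2, against 1325 in flox 1 and 1378 in wt 1. Scaled to library size it had 28.8 and 26.3 CPM in flox 2 and wt 2, against 54.3 and 67.0 CPM in flox 1 and wt 1. Both libraries numbered 2 lay below both numbered 1, and the genotype labels did not separate. Within labelled flox the ratio of flox 2 over flox 1 was 0.531 (95% interval 0.481 to 0.585), and within labelled wt that of wt 2 over wt 1 was 0.392 (0.354 to 0.433). These intervals, and those of other ratios below, cover counting error only. By number the log2 fold change was -1.14 (SE 0.14, edgeR quasi-likelihood adjusted p = 0.0187), 0.454 times the level. It was not called without the library labelled wt 1 (log2 fold change -0.98, adjusted p = 0.124). Lag3 lies near Cd4 on chromosome 6 (124904361 to 124911705, minus strand, mm10). Cd4, its structural relative, was even across the libraries, at 973 and 998 CPM in flox 2 and wt 2, against 919.6 and 983 in flox 1 and wt 1. The ratio of Lag3 to Cd4 counts was 0.0296 and 0.0263 in flox 2 and wt 2, against 0.0590 and 0.0682 in flox 1 and wt 1.

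Havcr2 encodes TIM-3, an inhibitory receptor of terminally activated T cells that also occurs on myeloid cells. It had 81 counts in flox 2 and 155 in wt 2, against 407 in flox 1 and 246 in wt 1. As levels these were 3.92 and 7.66 CPM, against 16.7 and 12.0. The groups by number did not overlap, though flox 2 was 0.511 times as high as wt 2 (0.386 to 0.673). The ratio was 0.235 within labelled flox (0.183 to 0.299) and 0.641 within labelled wt (0.521 to 0.787). The log2 fold change by number was -1.31 (SE 0.37), and the quasi-likelihood test was not passed (adjusted p = 0.188). DESeq2 called it lower (adjusted p = 0.0319), as did edgeR without a filter on low counts (adjusted p = 0.0449). It was called in 3 of 11 alternatives, the third being without wt 2, which leaves flox 2, the lowest library, alone on its side (log2 fold change -1.87, adjusted p = 0.0236). Without flox 2 the log2 fold change was -0.90 (adjusted p = 0.177), without flox 1 -1.05 (adjusted p = 0.55) and without wt 1 -1.52 (adjusted p = 0.388), none of them called by edgeR. The galectin Lgals9, a ligand of TIM-3, had 227 and 231 CPM in flox 2 and wt 2, against 196 and 195 in flox 1 and wt 1, and was not called (adjusted p = 0.265, edgeR). In bulk libraries such as these, fewer cells with a transcript and less of it per cell cannot be told apart.

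Tigit encodes an inhibitory receptor for CD155 and is a known mark of activated regulatory T cells. It had 2010 counts in flox 2 and 1648 in wt 2, against 3387 in flox 1 and 2911 in wt 1. Its levels were 97.2 and 81.5 CPM in flox 2 and wt 2, against 139 and 142 CPM in flox 1 and wt 1. The libraries numbered 1 lay close together, both above the libraries numbered 2. The ratio was 0.701 within labelled flox (0.663 to 0.741) and 0.576 within labelled wt (0.542 to 0.612). By number its log2 fold change was -0.65 (SE 0.11, edgeR quasi-likelihood adjusted p = 0.0436), which is 0.638 times the level. This call was close to the threshold: adjusted p was 0.0528 by limma-voom, 0.0541 with the genotype label as a block, 0.269 without wt 1 and 0.156 without flox 1.

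Cd96 encodes another CD155-binding receptor, which is abundant on T and natural killer cells and is mostly described as inhibitory in mice. It had 543 and 492 CPM in flox 2 and wt 2, against 396 and 270.1 CPM in flox 1 and wt 1. Both libraries numbered 2 were higher, while flox 1 and wt 1 differed by 1.47 times (interval 1.42 to 1.51). The ratio by number was 1.37 within labelled flox (1.34 to 1.41) and 1.82 within labelled wt (1.76 to 1.88). The fitted log2 fold change was 0.64 (SE 0.19, adjusted p = 0.237, edgeR), so the gene was not called. It was called in 2 of 11 alternatives, by DESeq2 (adjusted p = 0.0106) and by edgeR without flox 1 (log2 fold change 0.93). The latter fit leaves wt 1, the lowest library, alone on its side. Without flox 2 the log2 fold change was 0.56 (adjusted p = 0.569), without wt 2 it was 0.71 (adjusted p = 0.491) and without wt 1 it was 0.39 (adjusted p = 0.501).

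Cd226, on chromosome 18, encodes DNAM-1, the activating receptor that competes with TIGIT and CD96 for CD155. It had 118 and 95.4 CPM in flox 2 and wt 2, against 98.1 and 97.1 in flox 1 and wt 1. Flox 2 was the high library and the other 3 lay close together. The log2 fold change by number was 0.13 (SE 0.12, adjusted p = 0.728, edgeR), and its sign turned without flox 2 (-0.031, adjusted p = 0.927).

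Counts of the CD155-binding receptors were also set against each other within each library, which does not depend on the scaling between libraries. Tigit over Cd226 counts was 0.825 in flox 2 (0.777 to 0.876) and 0.854 in wt 2 (0.799 to 0.913), against 1.41 in flox 1 (1.34 to 1.49) and 1.46 in wt 1 (1.38 to 1.54). For this pair, libraries of the same number had overlapping intervals, and those of different numbers did not. Cd96 over Tigit counts was 5.59 in flox 2 and 6.04 in wt 2, against 2.85 in flox 1 and 1.91 in wt 1. Here the intervals of flox 1 (2.74 to 2.97) and wt 1 (1.82 to 2.00) did not overlap. Cd96 over Cd226 counts was 4.61 in flox 2 and 5.16 in wt 2, against 4.03 in flox 1 and 2.78 in wt 1. Of the summed counts of the 3 genes, Tigit made up 12.8% in flox 2 (exact binomial interval 12.3 to 13.4) and 12.2% in wt 2 (11.6 to 12.7), against 21.9% in flox 1 (21.3 to 22.6) and 27.8% in wt 1 (27.0 to 28.7). Such ratios show unequal change between the genes and not which of them moved, and the pairs were chosen after their values were known, so they carry no test.

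**Figure D2:**
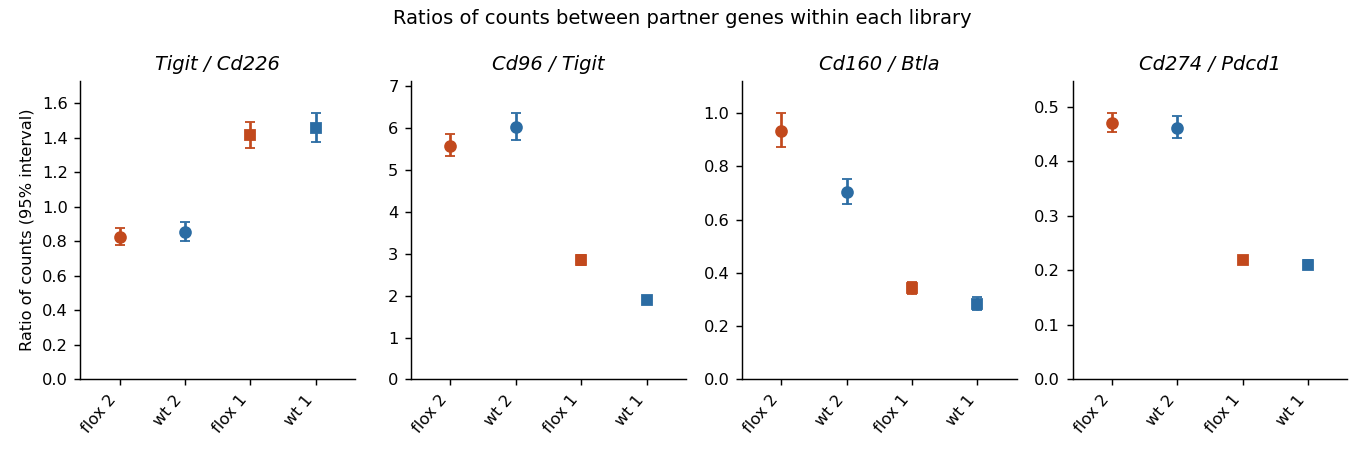
Ratio of raw counts between partner genes within each library (vertical axes, from 0), with exact 95% counting intervals, libraries numbered 2 (circles) left of those numbered 1 (squares), labelled flox in orange and labelled wt in blue. Tigit over Cd226 lies at 0.825 and 0.854 in the libraries numbered 2, against 1.41 and 1.46 in those numbered 1, and Cd274 over Pdcd1 at 0.471 and 0.462, against 0.219 and 0.211.

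Genes of the ligands had few counts in the sorted cells. Pvr, which encodes CD155, had 16.2 and 10.7 CPM in flox 2 and wt 2, against 13.2 and 18.6 in flox 1 and wt 1. Nectin2, a further ligand of TIGIT and CD226, had 4.26 and 4.99 CPM, against 6.60 and 1.94. Of 6 listed genes of the nectin group, 4 could be tested and 0 were called by number with edgeR, with 0 at an unadjusted p under 0.05, as 13.6% of all tested genes had.

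Btla encodes an inhibitory receptor of the immunoglobulin family that binds HVEM, and B cells express it strongly. It had 84.4 and 103 CPM in flox 2 and wt 2, against 137 and 132 CPM in flox 1 and wt 1. Both libraries numbered 2 were lower, flox 2 most. The ratio was 0.618 within labelled flox (0.582 to 0.655) and 0.781 within labelled wt (0.737 to 0.827). Its log2 fold change was -0.52 (SE 0.11) with an adjusted p = 0.10 by edgeR's quasi-likelihood test, while DESeq2 (adjusted p = 0.00791) and the fit without a filter on low counts (adjusted p = 0.00624) called it lower. Without wt 2, which leaves flox 2, the lowest library, alone on its side, it was also called (log2 fold change -0.66, adjusted p = 0.0128). It was not called in the other 8 of 11 alternatives, among them those without flox 2 (log2 fold change -0.38, adjusted p = 0.0924), without flox 1 (-0.50, adjusted p = 0.338) and without wt 1 (-0.54, adjusted p = 0.388). A list of 10 B cell markers summed to 70.4 and 80.6 CPM in flox 2 and wt 2, against 135 and 67.4 in flox 1 and wt 1. Its most abundant members, Cd79b and H2-Eb1, were at 23.8 to 37.0 and 13.1 to 38.5 CPM. The defining factor Pax5, at most 0.655 CPM, did not pass the filter on low counts. It had 3 and 3 counts in flox 2 and wt 2, against 16 and 10 in flox 1 and wt 1, lower as Btla was. Of the 9 tested markers edgeR called 0 by number, with 2 at an unadjusted p under 0.05, beside 13.6% of all tested genes. The median log2 fold change of the 9 was -0.92. Over all tested genes, 22.5% separated by number and were lower in the libraries numbered 2. Of the 9 markers this held for 3, lower as Btla was. These were Cr2, which encodes a complement receptor (1.16 and 1.14 CPM in flox 2 and wt 2, against 3.605 and 4.47 in flox 1 and wt 1), Fcer2a, the gene of CD23 (1.74 and 1.93, against 5.69 and 2.82), and Ms4a1, the gene of CD20 (4.401 and 6.28, against 9.75 and 7.29). The sum did not separate the same way, since wt 1, with high Btla, had the lowest. Bank1 ran the other way without separating (log2 fold change 0.52), at 7.16 and 4.75 CPM in flox 2 and wt 2, against 5.41 and 2.87. The part of B cell RNA in the Btla difference was not tested.

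Cd160 encodes a glycosylphosphatidylinositol-anchored receptor for HVEM that is known from natural killer cells and intraepithelial T cells. It had 1631 counts in flox 2 and 1463 in wt 2, against 1146 in flox 1 and 770 in wt 1. The levels were 78.9 and 72.3 CPM in flox 2 and wt 2, against 46.9 and 37.4 CPM in flox 1 and wt 1. Both libraries numbered 2 lay above both numbered 1. The ratio was 1.68 within labelled flox (1.56 to 1.81) and 1.93 within labelled wt (1.77 to 2.11). By number its log2 fold change was 0.84 (SE 0.14, edgeR quasi-likelihood adjusted p = 0.0427), or 1.79 times the level. It was not called without flox 1 (adjusted p = 0.0534) or without wt 1 (adjusted p = 0.235), with log2 fold changes of 1.01 and 0.69.

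Of 9 markers of CD8 T and natural killer cells, 7 were tested and 1 was called by number, beside 1.81% of all tested genes. This was Klrb1c, which encodes the natural killer receptor NK1.1. Klrb1c rose to 68.5 and 44.9 CPM in flox 2 and wt 2, against 21.3 and 22.6 in flox 1 and wt 1 (log2 fold change 1.37, SE 0.21, adjusted p = 0.0368, edgeR). The summed level of the list was 107 and 88.5 CPM in flox 2 and wt 2, against 66.0 and 57.3 in flox 1 and wt 1. Without Klrb1c the other 8 genes summed to 38.7 and 43.5 CPM in flox 2 and wt 2, against 44.7 and 34.8 in flox 1 and wt 1, and did not separate by number. The defining marker Ncr1 had 0 counts in flox 2 and wt 2, against 3 and 1 in flox 1 and wt 1. Eomes was at most 0.860 CPM and Cd8a was at 5.19 to 11.0 CPM in every library. Of the 7 tested, Klrb1c and Prf1 separated by number, both higher in flox 2 and wt 2, as 22.7% of all tested genes were. Prf1 had 11.4 and 16.4 CPM in flox 2 and wt 2, against 11.3 and 10.7 in flox 1 and wt 1, and was not called. The part of such cells in the Cd160 difference was not tested. The 5′ end of Cd160 overlaps that of Pdzk1 on the other strand, and counting by strand is not stated. Pdzk1 was looked up after the data were seen and had 10.6 and 13.4 CPM in flox 2 and wt 2, against 9.91 and 7.10 in flox 1 and wt 1.

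The counts of Cd160 relative to Btla, its partner at HVEM, were 0.934 in flox 2 (0.873 to 1.00) and 0.704 in wt 2 (0.658 to 0.753), against 0.343 in flox 1 (0.321 to 0.367) and 0.285 in wt 1 (0.262 to 0.308). Tnfrsf14, which encodes HVEM, was at 3.48 and 3.66 CPM in flox 2 and wt 2, against 4.63 and 4.91 in flox 1 and wt 1. Ltb, which encodes a membrane-bound lymphotoxin subunit, had 814 and 671 CPM in flox 2 and wt 2, against 576 and 616 in flox 1 and wt 1, and Lta, the gene of the secreted subunit, had 62.8 and 38.2, against 35.9 and 31.1. Of the 5 HVEM and lymphotoxin genes tested, 0 were called by number (edgeR, 1 at an unadjusted p under 0.05, beside 13.6% of all tested genes).

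**Figure D3:**
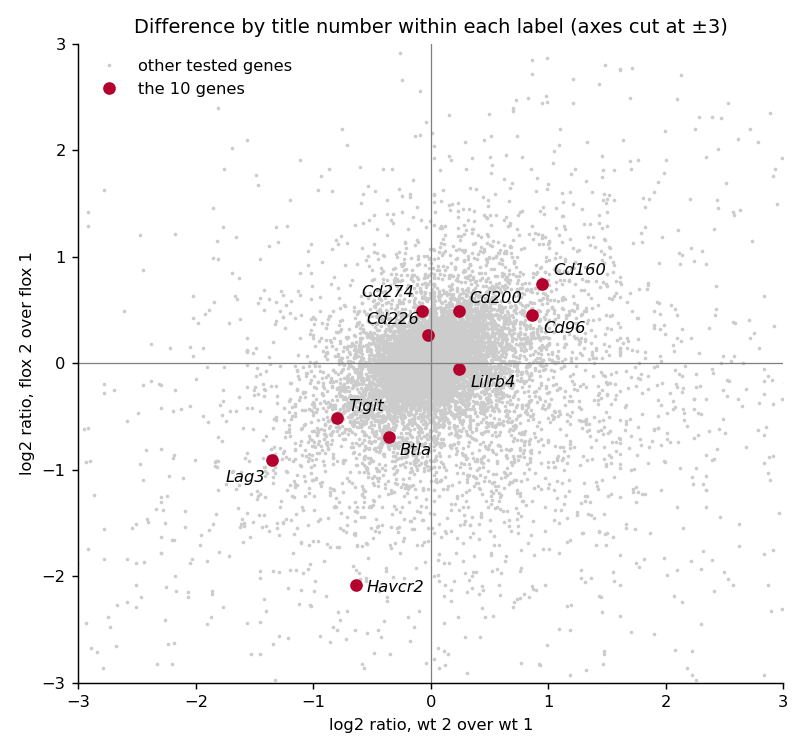
Each point is a gene, with the log2 ratio of wt 2 over wt 1 on the horizontal axis and of flox 2 over flox 1 on the vertical axis (0.5 added to each count; points beyond ±3 not drawn), the 10 genes in red and other tested genes in grey. Lag3, Tigit, Btla and Havcr2 lie at the lower left, Cd160, Cd96 and Cd200 at the upper right, and Cd226, Cd274 and Lilrb4 have ratios on opposite sides of 0.

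Cd274 encodes PD-L1, the ligand of the inhibitory receptor PD-1. It had 208 and 144 CPM in flox 2 and wt 2, against 148 and 152 CPM in flox 1 and wt 1. Flox 2 was the high library, and the other 3 lay close together. The log2 fold change by number was 0.23 (SE 0.17, adjusted p = 0.653, edgeR), with the sign turned when flox 2 was left out (log2 fold change -0.05). Without wt 2, which leaves flox 2 as the only library numbered 2, it was called higher (log2 fold change 0.48, adjusted p = 0.0329). The heat shock genes given above were highest in the same library, and their part in this value was not tested. Pdcd1, the gene of PD-1, was added after the data were seen. It had 441 and 312 CPM in flox 2 and wt 2, against 676 and 720.1 in flox 1 and wt 1 (log2 fold change -0.89, SE 0.17, adjusted p = 0.0804). Cd274 counts were 0.471 of Pdcd1 counts in flox 2 (0.455 to 0.489) and 0.462 in wt 2 (0.442 to 0.483), against 0.219 in flox 1 (0.211 to 0.227) and 0.211 in wt 1 (0.203 to 0.219).

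Cd200 encodes a membrane ligand for the inhibitory receptor CD200R and is found on B cells, activated T cells and follicular helper cells. It had 117 and 119 CPM in flox 2 and wt 2, against 83.2 and 101 CPM in flox 1 and wt 1. The libraries numbered 2 were close together and above both others. The ratio was 1.41 within labelled flox (1.33 to 1.50) and 1.18 within labelled wt (1.11 to 1.25). The log2 fold change of 0.36 (SE 0.11) did not pass (adjusted p = 0.229, edgeR), nor did it under any alternative tried. Cd200r1, its receptor, had 97.6 and 88.7 CPM in flox 2 and wt 2, against 61.6 and 69.9 in flox 1 and wt 1, a log2 fold change of 0.50 (SE 0.11) that also missed the threshold (adjusted p = 0.0970).

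Lilrb4 encodes gp49B, an immunoglobulin-like inhibitory receptor best known from myeloid and mast cells. It had 200.1 and 183 CPM in flox 2 and wt 2, against 207 and 154 CPM in flox 1 and wt 1. The libraries did not separate by number (log2 fold change 0.08, SE 0.15, adjusted p = 0.88, edgeR), and without flox 2 the log2 fold change was 0.015. Lilr4b (row Gp49a), the adjacent gene on chromosome 10, had 187 and 170 CPM, against 254 and 166. Their longest coding transcripts were identical at 96.6% of 1379 aligned bases, with identical stretches of up to 241 bases, so the division of reads between them is uncertain. With both genes summed, the log2 fold change was -0.08 (SE 0.18). A list of 10 myeloid and dendritic cell markers summed to 56.3 and 61.1 CPM in flox 2 and wt 2, against 97.9 in flox 1 and 11.7 in wt 1, led by Lyz2 (7.97 to 66.9 CPM) and C1qc (0.438 to 6.64 CPM). Lilrb4 was also lowest in wt 1 and highest in flox 1, where it was 1.34 times as high as in wt 1 (1.28 to 1.40). The part of myeloid RNA in Lilrb4 was not tested.

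Among further genes listed beside these pathways, the called ones were lower in the libraries numbered 2. Over all tested genes, 1.81% were called. Of 8 genes of the PD-1 and B7 group, 4 separated by number as lower and 2 as higher, beside 45.2% of all tested genes separating. The higher 2, Pdcd1lg2 and Icosl, were not called (edgeR adjusted p = 0.115 and 0.315). From this group 1 gene was called, Ctla4, which encodes the inhibitory receptor for CD80 and CD86 that regulatory T cells need. Ctla4 fell to 2080.2 and 1627 CPM in flox 2 and wt 2, against 3344 and 3342 in flox 1 and wt 1 (log2 fold change -0.85, SE 0.12, adjusted p = 0.0270, edgeR). Of 15 tested members of a list of other inhibitory receptors, 2 were called, Ctla4 again and Vsir. Vsir, which encodes the B7-related checkpoint protein VISTA, fell to 243 and 198 CPM, against 370 and 388 (log2 fold change -0.78, SE 0.11, adjusted p = 0.0290). The median log2 fold change of that list was -0.05. Of 11 tested members of a list of signalling genes, 1 was called, the adaptor gene Sh2d1a (SAP). Whether SAP acts with any of the receptors described here was not tested. Sh2d1a fell to 102 and 114 CPM in flox 2 and wt 2, against 231 and 233 in flox 1 and wt 1 (log2 fold change -1.10, SE 0.09, edgeR adjusted p = 0.00483). The phosphatase genes Ptpn6, Ptpn11 and Inpp5d of this list were not called (adjusted p = 0.507, 0.354 and 0.295). Of 8 other tested ligands and receptors, 0 were called by edgeR and 4 had an unadjusted p under 0.05, beside 13.6% of all tested genes.

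Among 6 markers of follicular helper T cells, 3 were called, beside 1.81% of all tested genes. All 3 were lower in the libraries numbered 2, like Lag3 and Tigit. They were Sh2d1a, given above, the chemokine receptor gene Cxcr5 and the cytokine gene Il21. Cxcr5 was at 89.4 and 65.9 CPM in flox 2 and wt 2, against 181 and 202 in flox 1 and wt 1. Il21 was at 0.967 and 0.346 CPM, against 14.5 and 19.0. Bcl6 and Cd40lg were also lower in both libraries numbered 2 but were not called (edgeR adjusted p = 0.0890 and 0.540). Il4 did not separate by number, at 16.9 and 10.1 CPM in flox 2 and wt 2, against 13.1 and 12.3 in flox 1 and wt 1. Foxp3, which such helper cells lack, was at 104 and 104 CPM in flox 2 and wt 2, against 91.0 and 93.8 in flox 1 and wt 1. Follicular regulatory T cells, which a sort of FoxP3-positive cells can include, share Cxcr5 and Sh2d1a with the helper cells. IL-21 is best known as a helper cell product. Neither cell type was identified in these libraries, and the source of the Il21 counts was not tested. A shift in the share of either cell type and a lower level per cell cannot be told apart here. Without flox 2 the genes called outside the 10 (Ctla4, Vsir, Sh2d1a, Klrb1c, Cxcr5 and Il21) were all still called, with log2 fold changes of -1.04, -0.93, -1.02, 1.04, -1.54 and -5.57. Without wt 1, Sh2d1a alone of these was called (adjusted p = 0.0443), and without flox 1 Ctla4, Vsir and Klrb1c were not (adjusted p = 0.106, 0.0940 and 0.194). Klrb1c also missed the threshold by limma-voom (adjusted p = 0.0617). Of 7 resting T cell genes, led by Ccr7 and Tcf7, 0 were called by edgeR, with 3 at an unadjusted p under 0.05, beside 13.6% of all tested genes. Epithelial markers, led by Epcam at 75.8 to 140.4 CPM and Krt8 at 27.3 to 89.8, summed to 234 and 318 CPM in flox 2 and wt 2, against 329 and 137 in flox 1 and wt 1, with 0 of 7 called.

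By genotype label, 0 of the 10 genes passed edgeR's quasi-likelihood test, and DESeq2 and limma-voom called 0. An unadjusted p under 0.05 was reached by 0 of the 10, beside 1.98% of all tested genes. This fit left out the title number, so differences by number counted as spread within a label. In the comparison by label 0.00768% of all tested genes were called, which is 1 gene. Log2 fold changes of labelled flox over labelled wt ran from -0.17 for Lag3 (SE 0.56) to 0.30 for Cd96 (SE 0.33). The median was 0.12, beside 0.0011 over all tested genes. Lag3 averaged 41.6 ± 18.0 CPM in labelled flox and 46.6 ± 28.8 CPM in labelled wt (SD, n = 2 each), so that the spread within a label exceeded the difference between labels. The labelled groups did not overlap for 2 of the 10 genes, Cd226 and Lilrb4, both higher in labelled flox, where 27.0% of all tested genes were separate (13.2% higher and 13.8% lower in labelled flox). Lilrb4 averaged 204 ± 5.14 CPM in labelled flox and 169 ± 20.0 CPM in labelled wt (log2 fold change 0.27, SE 0.12).

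**Figure D4:**
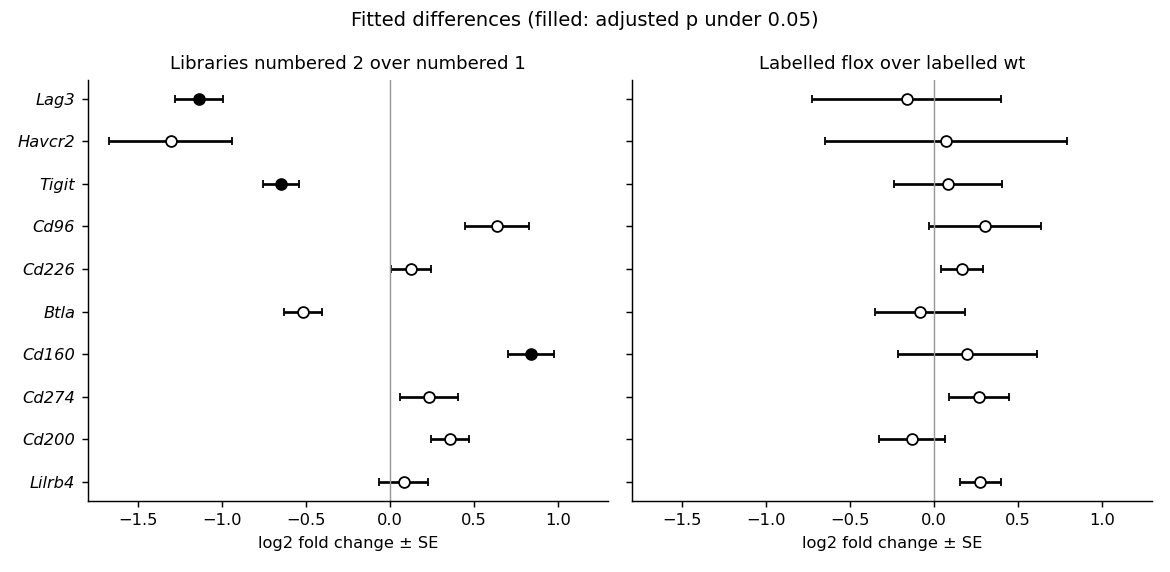
Fitted log2 fold change with its standard error (horizontal axis) for each gene, by title number on the left and by genotype label on the right, filled where the adjusted p was under 0.05. By number Lag3 (-1.14), Tigit (-0.65) and Cd160 (0.84) are filled, and by label none is.

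Of the 10 genes, 7 had a window that was used from the RefSeq promoter table, from 250 bases before to 50 after an annotated start (build GRCm38.p6). Lag3 and Lilrb4 had none, and Cd226 was left out. Windows are printed for the called genes Tigit and Cd160 and for Havcr2, the gene with the most negative fold change, each on its own strand. The Tigit window follows a RefSeq start, and the start of the gene in GENCODE M21 (43664146) lies 12 bases from its end. The windows were searched on both strands for TGCTGAC, a shortened form of the Maf recognition element, for the full elements, TGCTGA and TCAGCA separated by 1 base (T-MARE) or 2 bases (C-MARE), and for TGANTCA, the AP-1 site that lies at the centre of the T-MARE. Capitals mark a match.

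Tigit, chr16:43664135-43664434, minus strand: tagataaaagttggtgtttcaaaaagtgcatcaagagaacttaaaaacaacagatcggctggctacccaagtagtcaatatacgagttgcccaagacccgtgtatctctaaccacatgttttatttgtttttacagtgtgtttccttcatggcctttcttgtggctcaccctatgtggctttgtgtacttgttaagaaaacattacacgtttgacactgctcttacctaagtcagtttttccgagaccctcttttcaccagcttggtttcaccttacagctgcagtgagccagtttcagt
Havcr2, chr11:46454681-46454980, plus strand: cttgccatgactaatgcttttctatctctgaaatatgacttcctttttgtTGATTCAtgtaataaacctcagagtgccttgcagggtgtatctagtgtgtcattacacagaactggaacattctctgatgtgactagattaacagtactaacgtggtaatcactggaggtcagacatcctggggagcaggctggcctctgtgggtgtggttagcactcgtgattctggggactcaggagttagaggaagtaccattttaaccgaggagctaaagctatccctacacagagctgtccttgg
Cd160, chr3:96829302-96829601, minus strand: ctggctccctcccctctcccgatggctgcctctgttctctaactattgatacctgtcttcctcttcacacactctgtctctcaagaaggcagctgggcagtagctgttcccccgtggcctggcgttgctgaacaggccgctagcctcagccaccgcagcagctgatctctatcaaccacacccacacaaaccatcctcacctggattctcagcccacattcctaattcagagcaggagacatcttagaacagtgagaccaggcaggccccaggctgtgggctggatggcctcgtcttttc

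The only match among the printed windows was TGANTCA in Havcr2, starting 200 bases before the start site, a sequence present in 7.81% of 32851 windows. TGCTGAC occurred in 4.67% of all windows and each full element in 0.00609%. The second Cd160 window and those of Cd96, Cd274, Btla and Cd200 held no match to any of the 4 searched sequences, which says only that these letters are not in these windows. Tigit, Btla, Cd200 and Cd96 lie within 2.47 megabases of chromosome 16 (43648867 to 46120251, mm10). By number, Tigit and Btla were lower and Cd200 and Cd96 higher within this stretch.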

How the data were processed

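Per the labels, mRNA of the 4 libraries was amplified with a kit for ultra-low input. TopHat2 2.1.1, HTSeq 0.6.1, edgeR 3.14 and build mm10 are named in the submitters' processing notes. Their settings, the annotation and any use of strand could not be read from the labels. The deposited files hold raw counts per gene symbol (24061 gene rows; 5 counter summary rows, 66.6% to 67.2% of each column's total, were left out) and a second table of 10618 rows. Its signal values were made by the authors by adjusting the counts to a common library size, as recomputed from the deposited tables, and were not tested. Symbols of 27 rows had become dates, and none of these is named.

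The test was run with edgeR 4.0.16 under R 4.3.3 (filterByExpr, TMM, glmQLFit with robust estimation, glmQLFTest), with Benjamini-Hochberg adjustment over 13022 genes and a threshold of 0.05. Standard errors were taken as the log2 fold change over the square root of F. Libraries were grouped by the number and, separately, by the genotype in their titles. On counts simulated for the comparison by number (12763 genes run), the test called 70 of 100 genes changed 2-fold and 86 of 100 changed 4-fold. It also called 31 of 12563 unchanged ones, a larger share of the calls than the threshold of 0.05. For the comparison by label (12720 genes run) it called 39 of 100 changed 2-fold, 78 of 100 changed 4-fold and 27 of 12520 unchanged ones. Ratio and share intervals are exact binomial at 95% and cover counting error only. Lengths and positions are from GENCODE M21 (same build). The genes, lists and comparisons were chosen with earlier results of these data known. Beyond the 10 genes and Maf, each list's called genes were named (up to 6), or else its 2 most abundant. Other list genes named in the text were chosen after their values were seen. Alternatives were DESeq2 1.42.0, limma-voom 3.58.1, other scalings and filters, a block, and leaving out each library.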

Additional observations from a re-analysis of the deposited data

Results flagged for a closer look

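The difference by title number ran in opposite directions within the labels for 3 of the 10 genes, as it did for 40.8% of all tested genes, and with 1 library per number and label this was not tested. Cd226 was 1.20 times as high in flox 2 as in flox 1 (interval 1.14 to 1.27), and 0.982 times as high in wt 2 as in wt 1 (0.922 to 1.05). Cd274 was 1.40 times as high in flox 2 as in flox 1 (1.34 to 1.47), and 0.951 times as high in wt 2 as in wt 1 (0.904 to 1.00). Lilrb4 was 0.965 times as high in flox 2 as in flox 1 (0.926 to 1.01), and 1.18 times as high in wt 2 as in wt 1 (1.13 to 1.24). For each of these genes 1 of the 2 intervals reached 1.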

How the results depend on the processing

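With 2 libraries per group, the spread between libraries limits the tests, and depth adds most for Havcr2, with 81 to 407 counts. By number, 236 of 13022 tested genes (1.81%) were called, against 589 without a filter on low counts and 640 by DESeq2. Members called were 3, against 5 and 6. Calls thus rose over all genes as well, and the added member calls are not a result about the members. Leaving out 1 library gave 46 to 525 called genes and 0 to 6 called members, the lowest without wt 1 and the highest without wt 2. Log2 fold changes by number changed sign for genes that were not called: over fits without 1 library they ran from -0.031 to 0.28 for Cd226, -0.053 to 0.48 for Cd274 and -0.11 to 0.31 for Lilrb4, which was -0.082 when summed with Lilr4b. The signs of Lag3, Havcr2, Tigit, Btla, Cd96, Cd200 and Cd160 did not change under any alternative run, with log2 fold changes of -1.29 to -0.98 for Lag3, -0.78 to -0.52 for Tigit and 0.69 to 1.01 for Cd160. The cause of the changes was not tested.

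By label, 1 gene was called, against 2 without the filter, 12 by DESeq2, 0 by limma-voom (262 at an unadjusted p under 0.05), 0 with at least 1 CPM in every library (222) and 0 without any 1 library (202 to 430). No member was called under any alternative run. Without 1 library, log2 fold changes by label ran from -0.69 to 0.66 for Lag3, -1.32 to 0.77 for Havcr2, -0.26 to 0.53 for Tigit, -0.068 to 0.80 for Cd96, -0.47 to 0.22 for Btla, -0.40 to 0.10 for Cd200 and -0.22 to 0.75 for Cd160. Havcr2 was -0.17 by limma-voom and -0.21 with the replicate block. With the title number as a replicate block, 1 gene and 0 members were called by edgeR. In that fit 2 of the 10 members had an unadjusted p under 0.05, beside 515 of 13022 tested genes. The SE was 0.15 for Lag3 and 0.12 for Cd96, against 0.56 and 0.33 without the block. Libraries of a block share the title number and low or high Maf counts, and no label pairs them otherwise. Deviations from the label mean of flox 1 and wt 1 correlated across genes with r = 0.264, which includes any difference that goes with Maf.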
